A study of Mus musculus with 22 samples.

Results

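The comparison described here is the addition of an antibody against PD-L1 to JQ1 plus paclitaxel, read in the CD45-negative cells of EMT6 tumours. It set 3 libraries of tumours given JQ1, paclitaxel and anti-PD-L1 (the 3-drug group) against 3 libraries of tumours given JQ1 and paclitaxel. Of 24353 genes, the 10780 that reached 1 FPKM in 2 or more of the 12 CD45-negative libraries were taken. FPKM is a level scaled to the length of the transcript and the depth of the library. EMT6 is a mouse mammary carcinoma line, and wild-type BALB/c mice of 5 to 6 weeks received 200000 cells in each inguinal fat pad. Both groups took JQ1 by gavage each day at 50 mg/kg, and paclitaxel in both and the antibody (clone 10F.9G2) in the 3-drug group at 10 mg/kg in 2 injections a week. Cells were split by CD45, so the CD45-negative fraction holds tumour cells with stroma and the CD45-positive fraction holds leukocytes. The other CD45-negative libraries were 2 of vehicle, 2 of JQ1 alone and 2 of JQ1 with the antibody, each pair a right and a left tumour under 1 mouse code. Both groups compared received JQ1 and paclitaxel, and the series gives no group with the antibody and paclitaxel but without JQ1.

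PD-L1, the product of Cd274, is carried by tumour and myeloid cells and restrains T cells through the receptor PD-1, and the antibody blocks that contact. JQ1 occupies the bromodomains of the BET proteins, which otherwise hold these proteins on acetylated histones near active genes. Cells exposed to BET inhibitors typically raise Hexim1, which encodes an inhibitor of the elongation factor P-TEFb, together with several histone genes, and these serve as markers of exposure. Paclitaxel stabilises microtubules and stops cells in mitosis.

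The 6 libraries came from 6 mouse codes, which the labels do not spell out. The first element of the code was the same in the 3 libraries of JQ1 with paclitaxel and differed from that of every 3-drug library, where it took 2 values, one in replicates 1 and 2 and the other in replicate 3, so whatever it marks cannot be told apart from the antibody. Depth relative to the geometric mean of the fraction, read from the steps between low FPKM values, ran from 0.547 to 1.58 in JQ1 with paclitaxel and from 0.794 to 1.01 in the 3-drug group. The first principal component (50.6% of the variance of the 6) placed the 3-drug libraries at -27.1 to -21.6 and JQ1 with paclitaxel replicates 1 and 2 at 29.5 and 32.0. Replicate 3 of JQ1 with paclitaxel lay between them at 11.3, and it was the library of its group nearest to the 3-drug mean in 637 of the 1157 called genes (55.1%). Several markers of JQ1 exposure went against the treatment labels. Hexim1 was at 1.50, 0.978 and 1.32 FPKM in the 3-drug libraries, which are labelled as given JQ1, against 0.768 and 1.38 in vehicle and 4.08 and 3.34 in JQ1 alone. Brd2, at 56.9 to 61.6 FPKM, was also near vehicle (35.8 and 54.2) and far below JQ1 alone (223 and 209), and the 41 listed replication-dependent histone genes summed to 131, 120 and 174 FPKM against 189 and 134 in vehicle and 398 to 455 in JQ1 with paclitaxel. In the 2 libraries of JQ1 with the antibody Hexim1 was at 2.02 and 1.15 FPKM, Brd2 at 130 and 52.0 and Hist1h2bc at 20.7 and 18.5, below both libraries of JQ1 alone (Hist1h2bc 92.6 and 82.8). All libraries given the antibody had Hexim1, Brd2 and Hist1h2bc below JQ1 alone. In replicate 1 of JQ1 with the antibody and in replicate 1 of the 3-drug group Hexim1 and Brd2 stayed above both vehicle libraries. Brd2 did so in every 3-drug library. No antibody comparison can be given without the libraries given the antibody. Whether they differ in the antibody alone or also in exposure to JQ1 cannot be told apart.

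The keratin genes Krt8 and Krt18, markers of the carcinoma cells, were present in all 6 libraries, with Krt18 at 13.1 to 59.4 FPKM. Krt14, another keratin gene, ran from 0.324 to 6.37 FPKM. Krt8 lay at 584, 478 and 688 FPKM in the 3-drug libraries and at 346, 324 and 496 in JQ1 with paclitaxel, and its difference did not pass the test (adjusted p = 0.0885). In log2(FPKM + 1), 3-drug group minus JQ1 with paclitaxel, Krt8, Krt18 and Krt14 differed by 0.59, 0.99 and 0.77. Epcam, another marker of the carcinoma cells, went the other way, by -0.44 (limma, adjusted p = 0.193). Krt18, Krt14 and Epcam did not pass the test either. The epithelial adhesion gene Cdh1 was under 1 FPKM in all 6 libraries. Ptprc, which encodes CD45, was at 6.53, 8.65 and 3.29 FPKM against 2.67, 7.34 and 2.63, so some leukocyte RNA was present in every library. Summed over 14 pan-leukocyte genes, the FPKM of 2 of the 3-drug tumours came to 13.4% and 16.0% of the sum in their own CD45-positive cells, and that of 2 tumours of JQ1 with paclitaxel to 7.56% and 8.35%. Replicate 3 of the 3-drug group and replicate 2 of JQ1 with paclitaxel have no CD45-positive library. Their CD45-negative sums were 248 and 431 FPKM, the second the highest of the 6, so these percentages do not describe the whole groups.

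Differences below are of log2(FPKM + 1), 3-drug group minus JQ1 with paclitaxel, ± the standard error of a limma fit to the 6 libraries, so changes at low levels are understated. Rose and fell are used where the Benjamini-Hochberg adjusted p over all 10780 genes was under 0.05. By this rule 1157 genes differed (10.7%), of which 717 rose (6.65%) and 440 fell (4.08%), while the median over all genes was 0.01. With upper-quartile scaling, which moved that median to -0.07, 584 rose and 662 fell. The 2 groups of 3 did not overlap in 716 of the 717 genes that rose and in all 440 that fell, against 33.8% of all genes tested. A call made on the same 6 libraries nearly requires this, so it adds no separate support. Each library mattered to the count. Leaving out replicate 1, 2 or 3 of the 3-drug group gave 325, 570 and 619 calls, and leaving out replicate 1, 2 or 3 of JQ1 with paclitaxel gave 316, 525 and 1478. Of the genes called, 142 that rose and 83 that fell were called in all 6 of these fits.

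**Figure D1:**
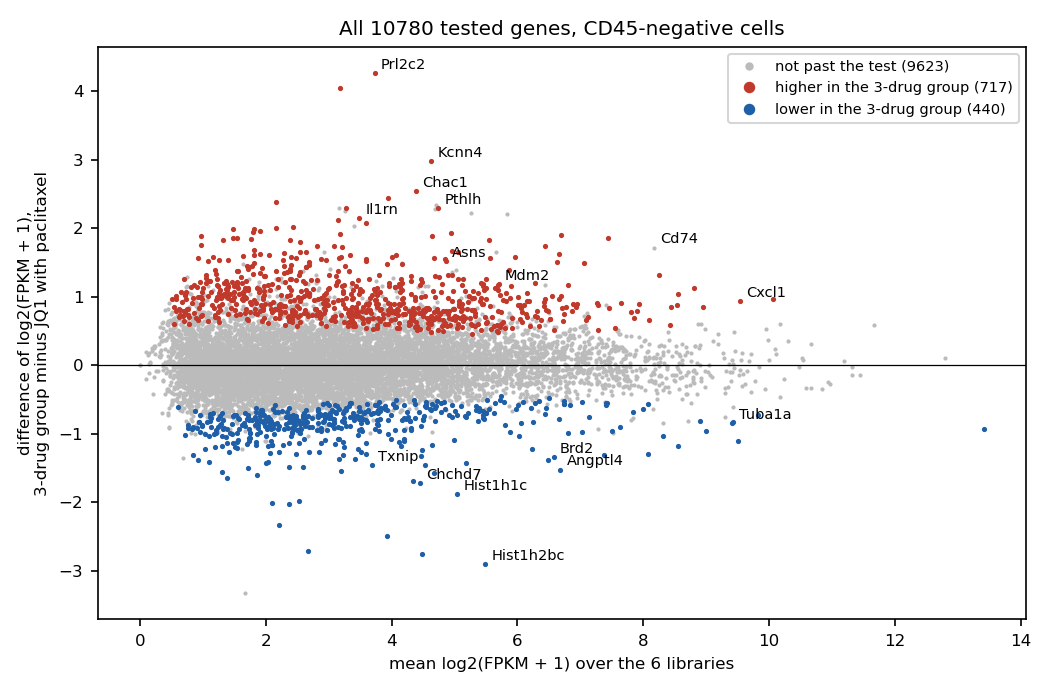
Each point is 1 of the 10780 tested genes, with its mean log2(FPKM + 1) over the 6 libraries on the x axis and its difference between the groups on the y axis. The 717 genes that rose are red and the 440 that fell are blue, with Prl2c2 at the top (4.26) and Hist1h2bc lowest among the called genes (-2.90).

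Histone genes fell furthest. Hist1h2bc, which encodes an H2B histone, was at 16.7, 15.4 and 14.3 FPKM in the 3-drug libraries and at 135, 111 and 120 in JQ1 with paclitaxel. The groups lay far apart, with a mean 7.90 times higher without the antibody, and the gene fell by 2.90 ± 0.14 (adjusted p = 2.86e-05). Hist2h2aa1, an H2A gene, was at 6.39, 10.5 and 6.63 FPKM against 59.0, 60.5 and 52.0 and fell by 2.75 ± 0.19 (adjusted p = 0.000285). The linker histone gene Hist1h1c was at 15.8, 14.7 and 17.9 FPKM against 75.8, 64.9 and 48.7 and fell by 1.88 ± 0.18 (adjusted p = 0.0016). Of 37 tested replication-dependent histone genes 18 fell (48.6%, against 4.08% of all genes) and 1 (Hist1h2ae) rose, with a median of -0.91 against 0.01 over all genes. Between 16 and 22 fell when 1 library was left out. Hist3h2a, Hist1h2bg, Hist1h2al, Hist1h2bl, Hist1h2bq and Hist1h2be each fell by between 1.98 and 2.72. Copies of these genes are alike, so their values depend on how shared reads were assigned, and the low-input kit primes on poly(A) tails, which most of these transcripts lack.

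Other markers of BET inhibition fell as well. Brd2, which encodes one of the proteins that JQ1 binds, was at 58.2, 56.9 and 61.6 FPKM in the 3-drug libraries and at 171, 164 and 121 in JQ1 with paclitaxel. It fell by 1.34 ± 0.16 (adjusted p = 0.00343). Hexim1, at 3.67, 4.70 and 3.24 FPKM without the antibody, fell by 1.10 ± 0.19 (adjusted p = 0.0108) with it. Txnip, which encodes an inhibitor of thioredoxin, was at 5.54, 8.94 and 6.26 FPKM against 22.1, 35.9 and 10.3 and fell by 1.45 ± 0.37 (adjusted p = 0.0357). Its call rested on single libraries, and the adjusted p reached 0.12 when 1 was left out. Of 9 tested reporters of BET inhibition these 3 and Hist1h2bk fell (44.4%, against 4.08% of all genes), and none rose. The median of the 9 was -0.14, and 4 of them had differences above 0. Brd3 (-0.14 ± 0.15) did not pass the test. Myc, a gene that BET inhibitors lower in many tumour lines, was at 128, 136 and 116 FPKM against 93.9, 85.2 and 111, a difference of 0.40 ± 0.14 that did not pass either (adjusted p = 0.105).

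**Figure D2:**
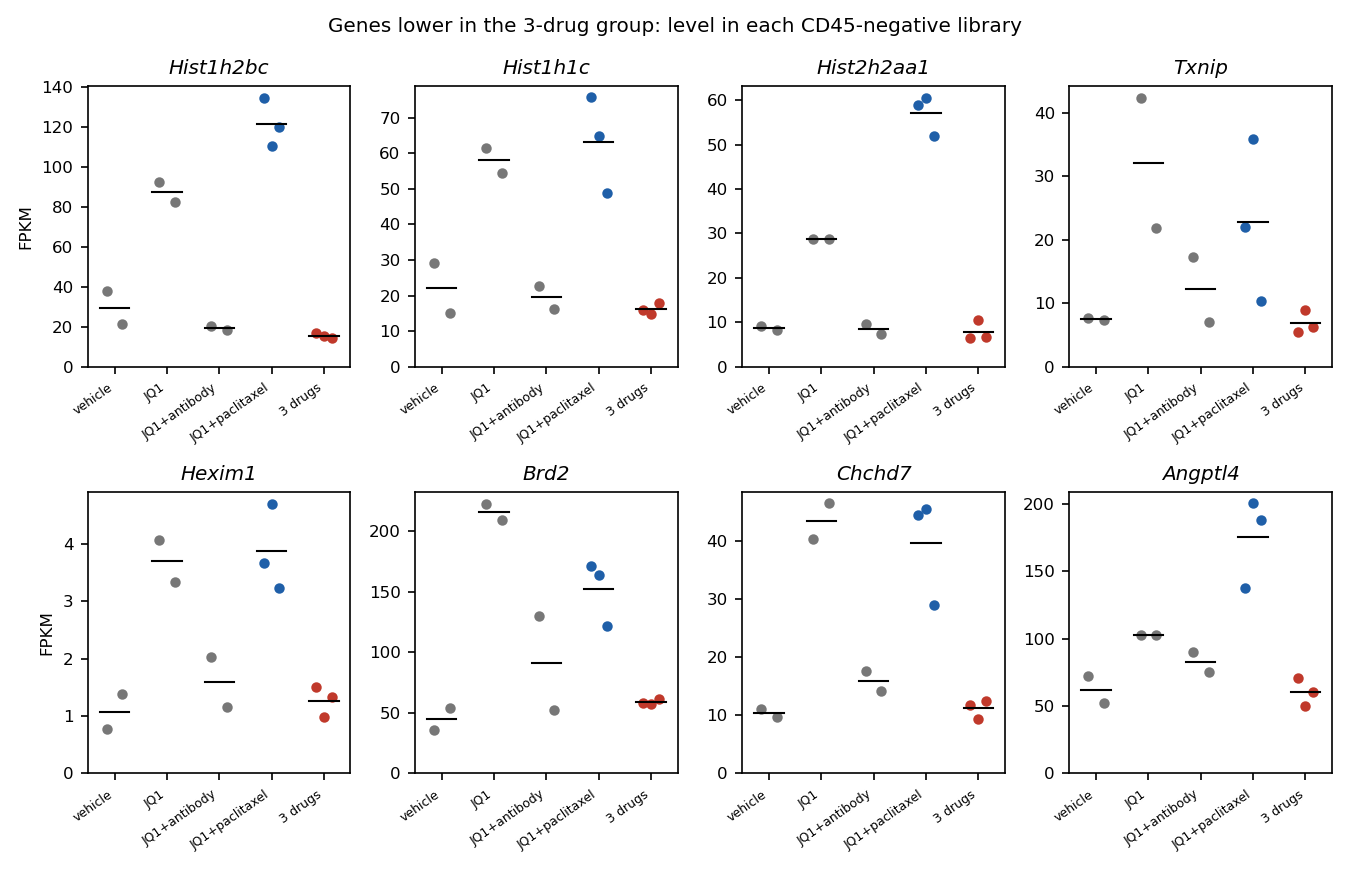
The level in FPKM of 8 genes that fell is shown for each CD45-negative library as a point, in 5 groups, with a bar at the group mean. In every panel all 3 libraries of the 3-drug group lie below all 3 of JQ1 with paclitaxel.

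The direction of every called gene was also set against JQ1 alone minus vehicle, 4 libraries that the main comparison does not use. This count was added after the values had been seen. Of the 717 genes that rose in the 3-drug group, 683 (95.3%) were lower in JQ1 alone than in vehicle, against 54.1% of all genes tested. Of the 440 that fell, 399 (90.7%) were higher in JQ1 alone than in vehicle, against 45.9% of all genes. In the fit to all 12 libraries 9.68% of genes were called lower and 5.09% higher in JQ1 alone than in vehicle. Among the genes that rose 388 were called lower there and 1 higher, and among those that fell 180 were called higher there and none lower. Leaving out each of the 4 libraries in turn gave 92.1% to 96.0% for the first share and 84.8% to 94.1% for the second. The JQ1 pair and the vehicle pair each carry 1 mouse code, so the spread between animals within each is unknown. The calls use a spread pooled over all 12 libraries, which include the 6 of the main comparison.

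Further genes that fell had no place on a list. Chchd7, which encodes a small mitochondrial protein, was at 11.8, 9.25 and 12.5 FPKM against 44.4, 45.4 and 28.9 and fell by 1.72 ± 0.20 (adjusted p = 0.00343). Habp4, which encodes a hyaluronan and RNA binding protein, was at 13.9, 14.5 and 13.3 FPKM against 47.3, 40.1 and 42.2, with vehicle at 13.2 and 13.1 and JQ1 alone at 50.7 and 51.1. It fell by 1.57 ± 0.13 (adjusted p = 0.000902). Mknk2, which encodes a kinase of the translation factor eIF4E, fell by 1.69 ± 0.21, Rogdi by 1.55 ± 0.20 and Uros, an enzyme of haem synthesis, by 1.49 ± 0.19. Angptl4, which encodes a secreted inhibitor of lipoprotein lipase, was at 70.6, 49.6 and 60.0 FPKM against 137, 201 and 188 and fell by 1.52 ± 0.19 (adjusted p = 0.00343). Chosen after their values were seen, Polr2a, the largest subunit of RNA polymerase II, fell by 1.36 ± 0.26 and the nuclear RNA Neat1 by 1.48 ± 0.20.

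Genes of fatty acid oxidation fell as well. This list was also put together after values had been seen. Of its 17 members 8 fell (47.1%, against 4.08% of all genes), none rose and the median was -0.53. Cpt1a, which admits fatty acids to mitochondria and limits the rate of their oxidation, was at 9.39, 13.8 and 11.6 FPKM against 24.1, 32.0 and 22.1 and fell by 1.10 ± 0.19 (adjusted p = 0.0106). Acadvl, the dehydrogenase of very long chains, fell by 0.76 ± 0.13, and Acadm, that of medium chains, by 0.78 ± 0.16. Leaving out 3-drug replicate 2 or JQ1 with paclitaxel replicate 1 gave 2 falls among the 17. Of 25 genes of the respiratory chain 1 fell (Ndufa4, by 0.64 ± 0.16), which is 4% and near the share of all genes. Their median was 0.01.

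Several tubulins, whose polymers paclitaxel binds, fell. Tuba1a was at 545, 399 and 611 FPKM against 906, 902 and 936 and fell by 0.84 ± 0.18 (adjusted p = 0.0197), and Tubb4b fell by 0.90 ± 0.21, Tuba1b by 0.82 ± 0.19, Tuba1c by 0.82 ± 0.19 and Tubb5 by 0.69 ± 0.19. Tubb3, the neuronal beta tubulin, rose by 1.01 ± 0.20 and Abcb1a, which encodes a transporter that exports paclitaxel, rose by 1.37 ± 0.24 (3.33, 4.38 and 3.34 FPKM against 0.973, 0.293 and 1.30, adjusted p = 0.0111). Abcc1, another exporter, rose by 0.54 ± 0.15, so 5 of 17 tested genes fell and 3 rose (29.4% and 17.6%, against 4.08% and 6.65% of all genes). The 5 falls were all lost without 3-drug replicate 1, without JQ1 with paclitaxel replicate 1 and without JQ1 with paclitaxel replicate 2. Immediate early genes, which cells also switch on while a tissue is dissociated, had a median of -0.57 over 20 members. Of these 4 fell (20%): Ier2 by 1.29 ± 0.31, Egr1 by 1.18 ± 0.23, Egr3 by 0.76 ± 0.18 and Ier5 by 0.54 ± 0.14. Between 0 and 11 of the 20 fell with 1 library left out, the 11 without JQ1 with paclitaxel replicate 3. Of 18 regulators of apoptosis 2 fell and 2 rose (11.1% each way, against 4.08% and 6.65% of all genes). Bcl2l11, which encodes the killer protein BIM, was 1 of the 2 that fell. It was at 3.40, 8.23 and 5.03 FPKM against 11.7, 11.0 and 18.4 and fell by 1.20 ± 0.28 (adjusted p = 0.0286). Bcl2l1, which encodes the survival protein BCL-XL, and Bok rose by 0.67 ± 0.14 and 0.86 ± 0.22. These calls were all lost without 3-drug replicate 1 or without JQ1 with paclitaxel replicate 1.

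Among the genes that rose, the proliferins rose furthest. They encode secreted proteins related to prolactin that promote vessel growth in the placenta. Prl2c2 was at 86.8, 31.2 and 68.6 FPKM in the 3-drug libraries and at 2.29, 0.973 and 3.29 in JQ1 with paclitaxel, and rose by 4.26 ± 0.38 (adjusted p = 0.00105). Its mean was 28.5 times higher with the antibody, and vehicle lay at 60.4 and 34.8 FPKM and JQ1 alone at 0.844 and 2.15. PRL2C4 rose by 4.04 ± 0.40 and Prl2c5 by 1.26 ± 0.22, but these are near-identical copies that share reads and do not count as separate evidence. Kcnn4, which encodes a potassium channel opened by calcium, was at 78.9, 59.4 and 68.5 FPKM against 5.82, 4.55 and 17.0 and rose by 2.98 ± 0.37 (adjusted p = 0.00343). Upp1, the uridine phosphorylase, rose by 2.44 ± 0.38, and Tnnt2, which encodes a cardiac troponin, by 2.38 ± 0.28.

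Secreted signals and matrix enzymes were also among the highest. Pthlh, the parathyroid hormone-related protein that drives bone loss in breast cancer, was at 71.4, 34.7 and 79.4 FPKM against 9.77, 8.88 and 15.5 and rose by 2.30 ± 0.31 (adjusted p = 0.00407). Il1rn, which encodes the antagonist of the interleukin-1 receptor, was at 25.8, 25.4 and 17.7 FPKM against 1.96, 3.83 and 9.53 and rose by 2.15 ± 0.39 (adjusted p = 0.0121). FIGF, the vascular growth factor VEGF-D, rose by 2.003 ± 0.22 and Areg, a ligand of the EGF receptor, by 1.50 ± 0.35, a call made in 1 of the 6 fits with a library left out. The collagenase Mmp13 was at 19.99, 20.6 and 20.9 FPKM against 2.82, 1.53 and 7.67 and rose by 2.30 ± 0.37 (adjusted p = 0.0085). It was 1 of 7 of 17 matrix metalloproteinases and inhibitors that rose (41.2%, against 6.65% of all genes), with Mmp12, Mmp3 and Mmp19, and none fell. Between 2 and 6 rose with 1 library left out, the fewest without JQ1 with paclitaxel replicate 1. Clip4, Arhgap22 and Eps8 rose by 1.91 to 2.01, and the last 2 of these were called in 1 of the 6 fits with a library left out.

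Of 25 tested genes of unfolded protein and amino acid stress 10 rose (40%, against 6.65% of all genes). In the amino acid part of that response the kinase GCN2 phosphorylates eIF2α, translation of the factor ATF4 increases, and ATF4 switches on genes for amino acid synthesis and import. ATF4 binds, with C/EBP partners, the element TTGCATCA, and the promoters of Chac1 and Herpud1 are shown because both genes rose and both hold it. The sequences run from 250 bases before to 50 after the gene start (RefSeq, GRCm38.p6), Chac1 at chr2:119350992-119351291 on the plus strand and Herpud1 at chr8:94386179-94386478 on the plus strand. Capitals mark the element on either strand.
Chac1: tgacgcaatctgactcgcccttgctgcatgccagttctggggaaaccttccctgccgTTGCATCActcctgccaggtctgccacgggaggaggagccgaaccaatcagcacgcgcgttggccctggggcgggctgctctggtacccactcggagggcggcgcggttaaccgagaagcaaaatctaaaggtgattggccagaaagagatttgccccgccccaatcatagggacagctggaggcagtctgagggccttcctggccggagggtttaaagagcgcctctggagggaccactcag
Herpud1: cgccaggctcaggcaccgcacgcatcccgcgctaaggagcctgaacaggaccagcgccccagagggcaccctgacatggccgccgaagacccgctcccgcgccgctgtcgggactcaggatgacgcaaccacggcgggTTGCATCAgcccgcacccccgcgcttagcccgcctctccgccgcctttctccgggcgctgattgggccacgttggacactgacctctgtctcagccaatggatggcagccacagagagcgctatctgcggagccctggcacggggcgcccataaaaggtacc
The element starts 193 bases before the start of Chac1 and 112 before that of Herpud1. It is in the same window of 2 of the 10 list members that rose, of 6 of the 23 tested members with a promoter entry (26.1%), and of 0.895% of all 32851 promoters. The files were made on mm9, so these positions were used for sequence only.

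Chac1, which encodes an enzyme that degrades glutathione, was at 46.7, 63.7 and 39.9 FPKM in the 3-drug libraries and at 7.20, 1.85 and 26.7 in JQ1 with paclitaxel, where replicate 3 stood above the others. It rose by 2.54 ± 0.64 (adjusted p = 0.0356), a call that reached an adjusted p of 0.12 with a library left out. Trib3, a pseudokinase induced by ATF4, was at 16.5, 17.7 and 18.3 FPKM against 3.34, 1.79 and 5.27 and rose by 2.12 ± 0.26 (adjusted p = 0.00343). Both were above all 6 libraries of vehicle, JQ1 and JQ1 with the antibody, where Trib3 reached at most 7.41 FPKM. Herpud1, which acts in the removal of misfolded proteins from the endoplasmic reticulum, was at 97.6, 89.0 and 92.5 FPKM against 33.5, 31.5 and 40.3 and rose by 1.39 ± 0.14 (adjusted p = 0.00178).

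The synthesis enzymes differed in another way. Asns, the asparagine synthetase, was at 65.2, 42.3 and 40.0 FPKM in the 3-drug libraries and at 13.8, 14.97 and 20.3 in JQ1 with paclitaxel. Replicates 2 and 3 of the 3-drug group were in the range of vehicle (33.1 and 48.2) and JQ1 alone (42.4 and 50.8), and replicate 1 was above it. Asns rose by 1.52 ± 0.21 (adjusted p = 0.00529). Mthfd2, of mitochondrial one-carbon metabolism, was at 31.1, 23.9 and 30.3 FPKM against 8.44, 6.44 and 11.8 and rose by 1.60 ± 0.21 (adjusted p = 0.00391), again with vehicle (20.3 and 29.3) and JQ1 alone (24.6 and 28.003) near the 3-drug values. Shmt2, Phgdh and Psat1, of serine and glycine synthesis, rose by 1.26 ± 0.15, 1.01 ± 0.17 and 0.97 ± 0.20. None of the 25 genes of this list fell, the median was 0.43, and 7 to 11 rose with 1 library left out. Atf4 mRNA (0.03 ± 0.17), Ddit3 (0.26 ± 0.14) and the chaperone gene Hspa5 (-0.32 ± 0.15) did not pass the test. On a list made after the values were seen, 10 of 20 cytosolic aminoacyl-tRNA synthetases rose (50%, against 6.65% of all genes). These enzymes load amino acids on tRNA and include ATF4 targets. Aars, the alanine enzyme, was at 80.8, 71.5 and 72.3 FPKM against 35.2, 29.5 and 39.1 and rose by 1.10 ± 0.14 (adjusted p = 0.00394). Without JQ1 with paclitaxel replicate 1, 1 of the 20 rose.

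**Figure D3:**
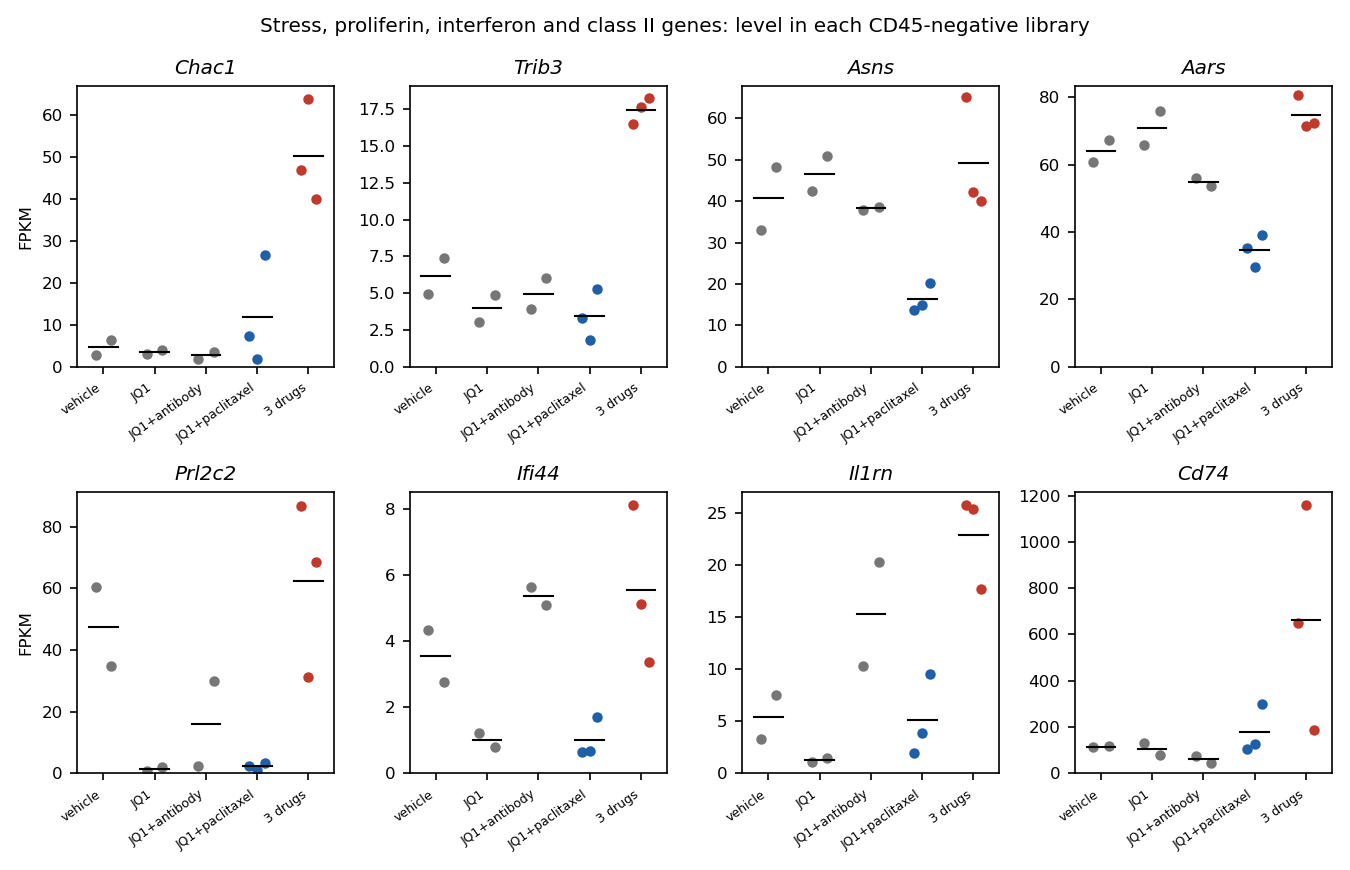
The level in FPKM of 8 genes is shown for each CD45-negative library as a point, in 5 groups, with a bar at the group mean. Chac1 and Trib3 are highest in the 3-drug libraries (red), Asns and Aars are lowest in JQ1 with paclitaxel (blue), and Cd74 is high in 2 of the 3-drug libraries only.

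Of the type I interferon response 14 of 27 genes rose, and of the interferon gamma response 1 of 21 (51.9% and 4.76%, against 6.65% of all genes). Many genes induced by type I interferons carry the interferon-stimulated response element, written here as TTTCNNTTTC. The promoters of Ifit3 and Isg15 are shown because both genes rose and both hold it, Ifit3 at chr19:34583279-34583578 on the plus strand and Isg15 at chr4:156200769-156201068 on the minus strand, with the element in capitals.
Ifit3: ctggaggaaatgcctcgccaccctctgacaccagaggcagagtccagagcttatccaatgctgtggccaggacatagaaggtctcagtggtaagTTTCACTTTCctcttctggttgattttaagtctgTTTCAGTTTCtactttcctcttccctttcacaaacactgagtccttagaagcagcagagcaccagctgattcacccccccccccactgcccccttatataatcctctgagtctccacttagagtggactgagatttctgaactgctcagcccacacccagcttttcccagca
Isg15: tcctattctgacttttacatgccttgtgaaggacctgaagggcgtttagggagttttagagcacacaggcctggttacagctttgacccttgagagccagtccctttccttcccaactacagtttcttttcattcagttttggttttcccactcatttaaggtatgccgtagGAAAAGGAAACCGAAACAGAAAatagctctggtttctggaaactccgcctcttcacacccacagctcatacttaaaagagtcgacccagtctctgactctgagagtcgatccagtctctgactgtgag
The pattern begins 156 bases before the start of Ifit3 in the first of 2 matches and 78 before that of Isg15 in the first of 3 overlapping ones. It is in 5 of the 10 list members that rose and have a promoter entry, in 11 of 21 tested members with an entry (52.4%) and in 3.44% of all promoters of this length. None of these 21 promoters holds the ATF4 element, and none of the 23 of the stress list holds this one.

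Ifit3, which encodes an antiviral protein, was at 3.47, 3.04 and 2.19 FPKM in the 3-drug libraries and at 0.268, 0.251 and 0.377 in JQ1 with paclitaxel, and rose by 1.57 ± 0.19 (adjusted p = 0.00343). Vehicle lay at 2.86 and 3.49 FPKM and JQ1 alone at 0.124 and 0.245. Ifi44 was at 8.14, 5.13 and 3.38 FPKM against 0.655, 0.672 and 1.71 and rose by 1.68 ± 0.30 (adjusted p = 0.0117). Usp18, which encodes a brake on interferon receptors, rose by 1.54 ± 0.19, Rtp4 by 1.30 ± 0.21 and Isg15 by 0.75 ± 0.17. None of the 27 fell and the median was 0.80. Leaving out replicate 1 of either group gave 5 calls, and the list's median stayed between 0.74 and 0.97 over the 6 fits. Of the 8 members not higher in the CD45-positive fraction, 5 rose. The interferon gamma gene that rose was Gbp3 (1.08 ± 0.26), and that list's median of 0.39 was -0.08 without 3-drug replicate 2. The peptide transporters and inducible proteasome subunits of MHC class I presentation made up its 4 calls of 20 (20%, against 6.65% of all genes): Psmb10 (0.96 ± 0.17), Tap2 (0.86 ± 0.14), Tap1 (0.68 ± 0.17) and Psmb8 (0.59 ± 0.15).

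The groups overlapped in PD-L1 itself. Cd274 was at 9.23, 22.1 and 3.93 FPKM in the 3-drug libraries and at 3.17, 5.84 and 8.54 in JQ1 with paclitaxel, a difference of 0.70 ± 0.50 with an adjusted p of 0.381. MHC class II genes had a median of 2.21 but none of 8 passed the test. Cd74, the invariant chain, was at 648, 1158 and 186 FPKM against 104, 124 and 301, so 3-drug replicates 1 and 2, which share the first element of their mouse code, were high, and replicate 3, with another, lay within the range of JQ1 with paclitaxel. Without 3-drug replicate 3, 7 of the 8 passed, without JQ1 with paclitaxel replicate 3, 5 did, and 5 did with all 12 libraries in the fit. Among ligands of other checkpoints Nt5e, the ectoenzyme CD73, rose by 1.22 ± 0.24 and PVRL2 by 0.78 ± 0.18, and neither was called without 3-drug replicate 1. Tnfrsf9, the costimulatory receptor 4-1BB, was at 19.9, 17.6 and 17.7 FPKM against 8.21, 7.02 and 8.76 and rose by 1.11 ± 0.15 (adjusted p = 0.00407). Havcr2, the receptor TIM-3, rose by 1.45 ± 0.23. Pdcd1, Pdcd1lg2, Cd8a and Ifng were under 1 FPKM in all 6 libraries and were not tested.

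Leukocyte levels overlapped between the groups. The 14 pan-leukocyte genes summed to 413, 410 and 248 FPKM in the 3-drug libraries and 166, 431 and 180 in JQ1 with paclitaxel, and none passed the test (median 0.55), though up to 5 did without JQ1 with paclitaxel replicate 2. In bulk samples fewer cells of a type and less RNA per cell cannot be told apart. Of 21 macrophage and monocyte genes 4 rose (19.0%, against 6.65% of all genes): Fcgr1, Fcgr4, Ly6c2 and Ms4a7. The macrophage markers Adgre1 (0.24), Csf1r (0.44), Cd68 (0.72), C1qa (-0.18) and Lyz2 (-0.35) did not pass the test. Without 3-drug replicate 1 or JQ1 with paclitaxel replicate 1 none of the 21 genes rose. Their sum was 2122, 2182 and 1402 FPKM against 1398, 3738 and 1316, highest in JQ1 with paclitaxel replicate 2, the shallowest of the 6. That library also had the highest pan-leukocyte sum, with Cd74 at 124 FPKM and Ifit3 at 0.251 FPKM. As 1 library, it does not settle what part leukocyte RNA had in these genes. Of 5 tested T cell genes Lck and Tcf7 rose (40%, against 6.65% of all genes), and neither did without replicate 1 or 2 of either group. Cd3d, a defining marker, was at 0.0910, 1.56 and 0 FPKM against 0.149, 0 and 0.137, and Cd8a was near 0 throughout. The part of leukocyte RNA in the class II and interferon values was not tested, beyond the count above for genes not higher in CD45-positive cells. Over that set of 7455 genes, 623 rose and 364 fell. None of 11 tested endothelial genes, 7 pericyte genes, 7 adipocyte genes, 5 muscle genes or 4 red cell genes passed. Of 24 fibroblast and collagen genes Dcn, Ogn and Omd rose (12.5%, against 6.65% of all genes), by 0.89 ± 0.22, 0.92 ± 0.22 and 1.46 ± 0.37. None was called when any 3-drug library was left out. Col1a1 was at 198, 266 and 324 FPKM against 557, 477 and 151 and did not pass.

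Some chemokines and NF-kB targets rose. Ccl12, which attracts monocytes, was at 29.4, 19.3 and 23.3 FPKM against 4.74, 7.30 and 3.24 and rose by 2.07 ± 0.25 (adjusted p = 0.00343), and the neutrophil chemokines Cxcl5 and Cxcl1 rose by 1.83 ± 0.47 and 0.94 ± 0.25. With Cxcl16 these were 4 of 25 inflammatory genes (16.0%, against 6.65% of all genes), and 1 to 11 rose with 1 library left out, the fewest without replicate 1 or 2 of either group. The NF-kB list had 5 of 15 higher (33.3%), among them Nfkb2, Traf1 and Vcam1, and none without replicate 1 of either group or replicate 2 of JQ1 with paclitaxel. Of 12 epithelial genes 2 rose (16.7%). Trp63, a factor of basal mammary cells, was at 2.60, 2.35 and 3.19 FPKM against 0.521, 0.208 and 0.547 and rose by 1.39 ± 0.19 (adjusted p = 0.00413), and Krt7 rose by 0.96 ± 0.23.

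Some targets of p53 and some genes of hypoxia and proliferation rose. Mdm2, which encodes the ligase that degrades p53, was at 76.9, 77.5 and 77.5 FPKM against 32.3, 30.3 and 38.5 and rose by 1.18 ± 0.14 (adjusted p = 0.00343). Bbc3, which encodes the killer protein PUMA, was at 35.2, 51.6 and 43.3 FPKM against 17.3, 12.3 and 12.3 and rose by 1.57 ± 0.19 (adjusted p = 0.00343). With Gdf15, Sesn2 and Cdkn1a these made 5 of 19 p53 targets (26.3%, against 6.65% of all genes), and 3 to 8 rose with 1 library left out, the fewest without replicate 1 of either group. Sesn2 is also on the stress list. Of 22 genes of hypoxia and glycolysis 9 rose (40.9%), such as Ndrg1 (1.50 ± 0.33), Adm (1.32 ± 0.28), P4ha2 (1.25 ± 0.19) and Hk2 (1.07 ± 0.27), and 2 of the 22 rose without 3-drug replicate 1. Vegfa, a classical hypoxia target, did not pass (-0.05 ± 0.17). DNA replication genes had 7 of 27 higher, with Cdt1 (1.28 ± 0.21) and Mcm3 (0.98 ± 0.17), mitotic genes 3 of 25 (Ube2c, Ccnb1 and Ccnb2) and MYC targets with ribosome biogenesis 6 of 27, with Ppan (1.08 ± 0.21) and Srm (0.93 ± 0.17). These are 25.9%, 12% and 22.2% of the lists, against 6.65% of all genes. Without 3-drug replicate 1 these counts were 1, 0 and 0. Constitutive proteasome genes had none of 22 called and a median of 0.11.

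**Figure D4:**
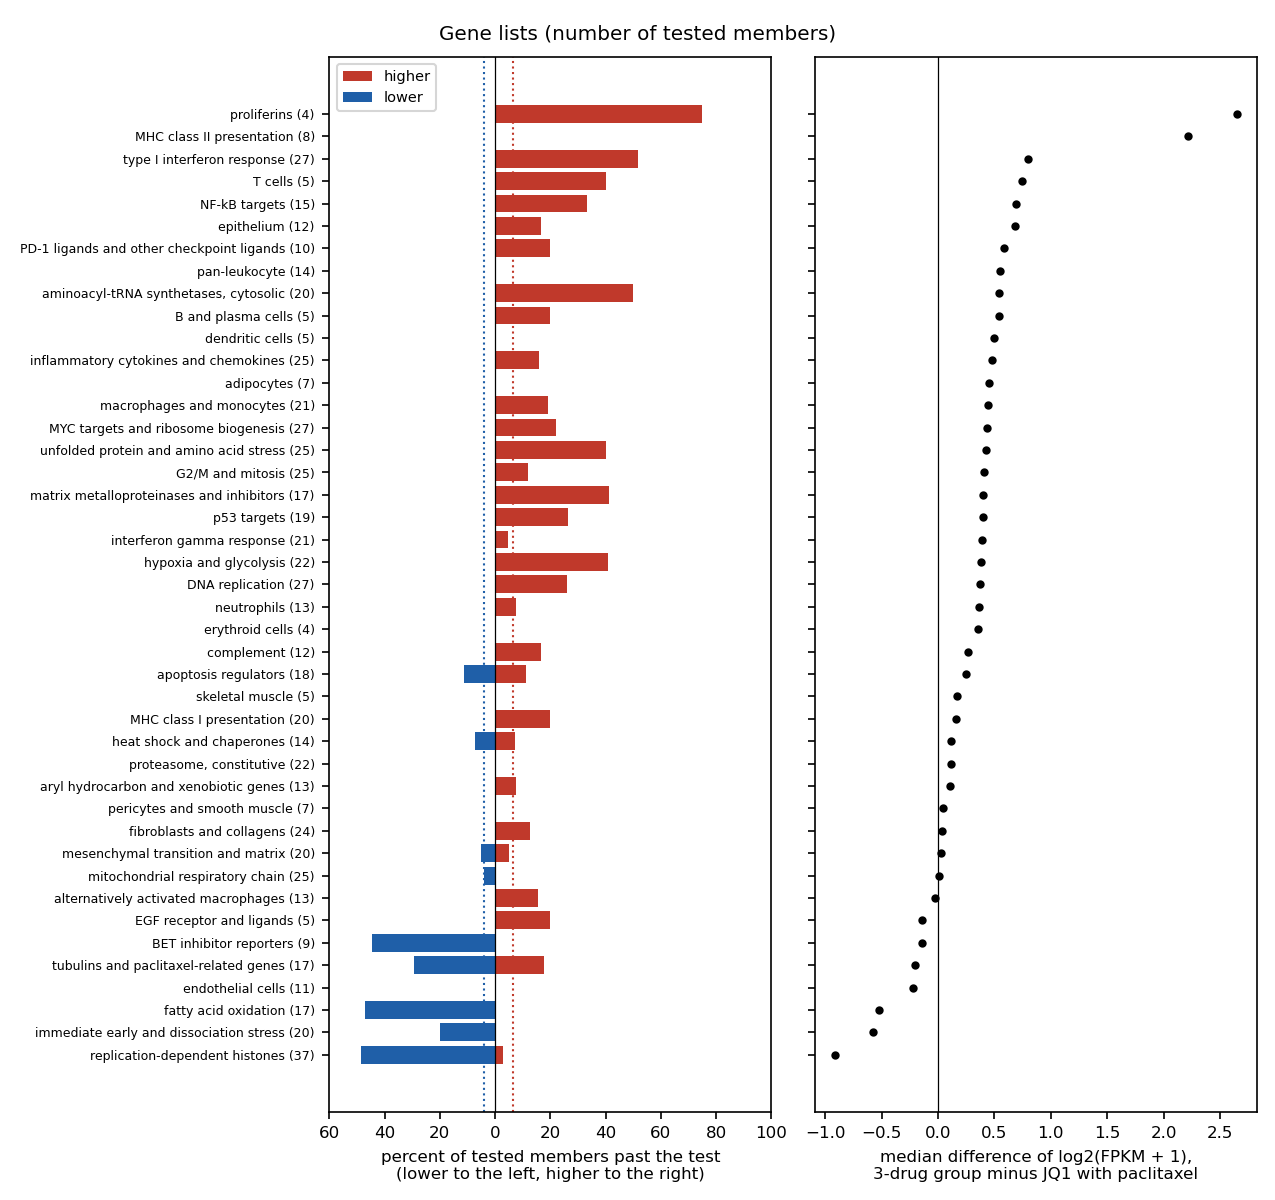
The left panel gives, for each gene list with at least 3 tested members, the percentage that rose (red, to the right) and fell (blue, to the left), with dotted lines at the shares over all genes (6.65% and 4.08%). The right panel gives the median difference of log2(FPKM + 1) of the list, from -0.91 for histones to 2.65 for proliferins.

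The antibody was also added to JQ1 without paclitaxel, which asks whether its difference depends on paclitaxel. The 4 libraries are the 2 of JQ1 with the antibody and the 2 of JQ1 alone. The JQ1 pair was also set against vehicle above, so the shares below are not independent of the shares given there. As in the 3-drug group, the markers of JQ1 exposure were lower in these antibody libraries than in JQ1 alone, so the shares below compare differences that both include this. In that pair of groups 629 of the 10780 genes were called (5.83%), with the spread pooled over all 12 libraries. Of the 717 genes that rose with paclitaxel, 676 (94.3%) were also higher without it, against 53.7% of all genes, and 189 were called higher and none lower. Of the 440 that fell, 400 (90.9%) were lower without it, against 46.2% of all genes, and 136 were called lower and none higher. Across the 10780 genes the 2 differences, which share no library, had a Pearson correlation of 0.634, given as a description since genes are not replicates. Hist1h2bc fell by 2.11 ± 0.22 without paclitaxel, Habp4 by 1.98 ± 0.14, and Ifit3 rose by 2.20 ± 0.23. The JQ1 with antibody pair, like the JQ1 pair, carries 1 mouse code.

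For some stress genes and Aars the values of both pairs of groups are given side by side, with Aars, Asns and Mthfd2 among those named for their high interaction. Without paclitaxel the antibody difference was -0.36 ± 0.16 for Aars, -0.27 ± 0.25 for Asns, -0.12 ± 0.24 for Mthfd2, -0.33 ± 0.72 for Chac1 and -0.02 ± 0.23 for Herpud1. None of these passed, and the median of the stress list there was -0.02. The difference between the antibody differences was tested as an interaction over all 12 libraries. It was 1.46 ± 0.21 for Aars (adjusted p = 0.0533), 1.79 for Asns and 1.72 for Mthfd2 (adjusted p = 0.16 for both), and 2.87 for Chac1 (adjusted p = 0.53), so none passed. Pck2, Slc7a5 and Osgin1, with interactions of 1.24, 1.12 and 1.86, did not pass either. On the other side Wfdc17, a secreted protein of myeloid cells, fell by 1.23 ± 0.27 with paclitaxel and differed by 1.33 ± 0.36 without it, an interaction of -2.55 (adjusted p = 0.16). Ppil3 (-1.44), MYEOV2 (-1.11), S100a8 (-1.92), Ccl6 (-2.20) and Ddt (-1.11) did not pass. The interaction called 1 gene of 10780 (0.00928%), the small nucleolar RNA Snora21, and 771 genes had an unadjusted p under 0.05. Snora21 was listed at 0 in every library of the main comparison and passed the filter only through the pair of JQ1 with the antibody, so its call says nothing of paclitaxel. With depth as a covariate 7 genes were called, and without JQ1 with paclitaxel replicate 3, 4 were.

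**Figure D5:**
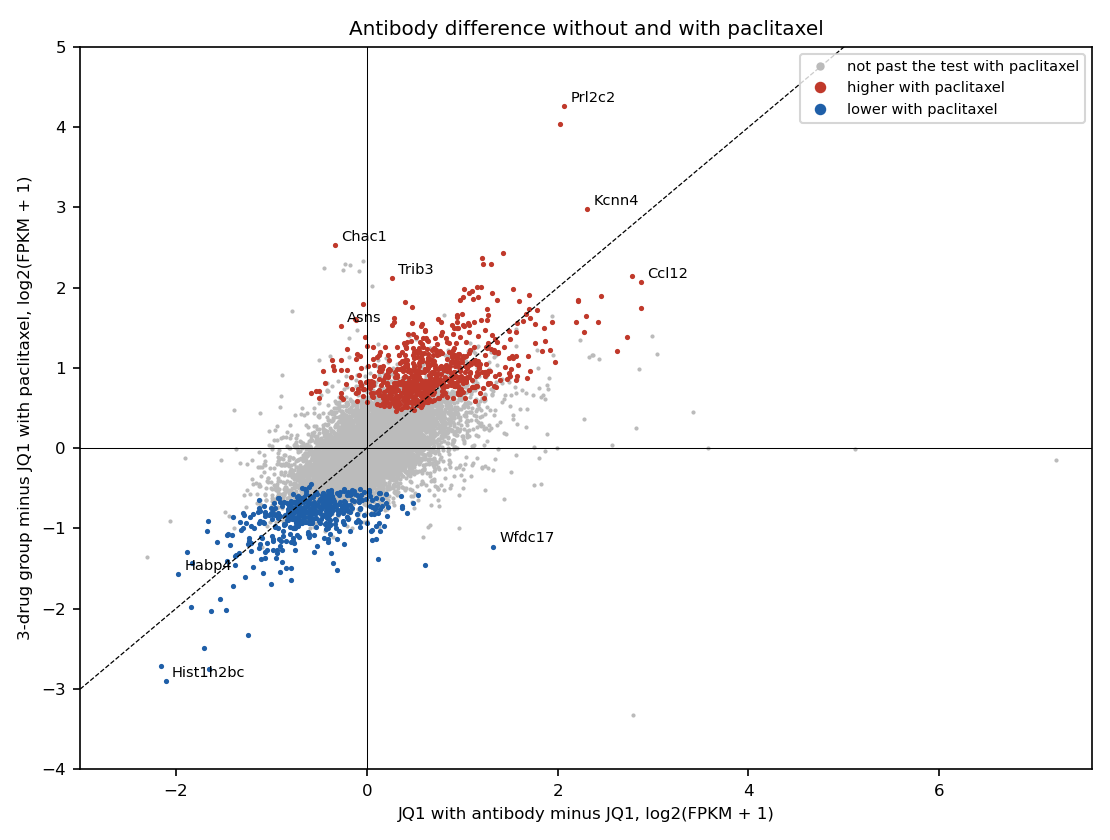
Each point is 1 of the 10780 tested genes, with the antibody difference without paclitaxel on the x axis and with paclitaxel on the y axis, both of log2(FPKM + 1), and a dashed line of equality. Most red and blue points lie in the upper right and lower left, while Chac1, Trib3 and Asns lie near 0 on the x axis.

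In the CD45-positive fraction of the same treatments, with 2 libraries a group, 1 of 10340 genes passed the test (0.00967%), by limma over 10 libraries, and 1331 had an unadjusted p under 0.05. It was Mir6236, at 88.7 and 67.9 FPKM with 3 drugs and 655 and 477 without the antibody, and it fell by 2.83. Alternatives of that fit called 0 to 5 genes. None of the following passed there: Hist1h2bc differed by -0.92, Brd2 by -0.70 and Hexim1 by -0.63, Ifit3 by 1.19, Angptl4 by -2.39 and Ccnb2 by 1.51. The listed replication-dependent histone genes summed there to 157 and 531 FPKM with 3 drugs and to 470.5 and 264 without the antibody, so the groups overlapped. Their median difference was -0.19, and that of the listed reporters of BET inhibition was -0.14. The fractions were normalized apart and were not tested against each other.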

How the data were processed

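Bulk RNA of EMT6 tumours, split by CD45, was sequenced from low-input SMARTer libraries, per the labels' protocols. Reads were aligned with STAR 2.5.1b to mm9, per the submitters' processing notes. Which tool made the gene values is not stated there or in the labels. The authors deposited 1 table of FPKM per fraction, a unit inferred from the values, and no column was left out. FPKM hold no read totals, so absolute depth and counting error are unknown. Relative depths came from steps between low values.

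Genes with FPKM of at least 1 in at least 2 libraries were fitted as log2(FPKM + 1) with limma 3.58.1 in R 4.3.3, with a mean-variance trend. The 6 libraries of the 2 groups were fitted alone (4 residual degrees of freedom, 9.47 after moderation), the interaction over 12 and the CD45-positive fraction over 10. Tests were two-sided. An exact permutation test of 3 against 3 cannot go below p = 0.10 and was not used. Nothing says whether tumours of a group were raised apart, so p-values measure only spread between these tumours. The fit was tested on simulated data. Genes, the 45 lists and the comparison were chosen with earlier results of these data known, and 2 lists and the comparison with JQ1 alone against vehicle were added after the values were seen. Named genes were the 15 highest and 15 lowest called genes whose mean level reached 2 on that scale without overlap of the groups, clone names passed over, up to 4 called members of each list (else the 2 of highest level), 10 set genes and 6 each way of the interaction. Abcc1, Brd3, Cdkn1a, Col1a1, Herpud1, Hist1h2ae, Isg15, Krt8, Mir6236, Neat1, Polr2a, Snora21, Tuba1b, Tuba1c, Tubb5, Vegfa, the uncalled stress genes, the serine enzymes and the fatty acid oxidation genes fall outside this rule and were chosen after their values were seen. Promoters are from RefSeq, GRCm38.p6. Figures used Python 3.11.15, pandas 2.3.3 and matplotlib 3.10.9. Alternatives were the pseudocount, filters, scaling, a fit of all 12 libraries, depth as a covariate, no trend, leaving out each library, and genes not higher in CD45-positive cells. A few genes are not reported here.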

Additional observations from a re-analysis of the deposited data

Results flagged for a closer look

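Snora21, a small nucleolar RNA that guides modification of ribosomal RNA, was the 1 gene whose antibody difference was called as unequal with and without paclitaxel, by -3.58 (limma interaction, adjusted p = 5.6e-05). It was listed at 0 in all 6 libraries of the main comparison and in the vehicle and JQ1 libraries, and at 8.99 and 13.3 FPKM in the 2 libraries of JQ1 with the antibody, which carry 1 mouse code. It entered the test only through those 2 libraries, so the adjusted p is a property of that pair and supports nothing about paclitaxel.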

How the results depend on the processing

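The 1157 calls of the antibody comparison came to 1119 and 1143 with pseudocounts of 0.1 and 0.5, 1161 with median-of-ratios scaling, 1246 with upper-quartile scaling, 1252 with depth as a covariate, 1113 without the trend, 1143 with a filter of FPKM at least 2 in 3 of the 6 libraries, 987 over genes not higher in CD45-positive cells and 1712 with all 12 libraries in the fit, which shared 1131 calls with the main result. Without a filter 476 of 16049 genes were called. Leaving out 1 library gave 316 to 1478 calls. Upper-quartile scaling turned the split from 62.0% to 46.9% higher. The interaction called 0 genes with a pseudocount of 0.1, 2 with median-of-ratios scaling, 2 without a filter, 7 with depth as a covariate and 1 to 4 with a library left out. The CD45-positive comparison called 2 genes with a pseudocount of 0.1, 0 without a filter, 0 with its 4 libraries alone and 0 to 5 with a library left out. The cause of these moves was not tested. No named gene changed direction with a call under any alternative. No paired analysis was possible because the labels give no replicate numbers that the groups share. FPKM set no counting error, so levels under 1 FPKM are not resolved here.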
